A study of Rattus norvegicus with 10 samples.

Results

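The genes described here make the machinery of DNA replication and of mitosis. They were chosen by name: 41 genes, of which 15 act in S phase and 26 in mitosis, measured in the testes of rat pups on postnatal day 6. A probe belonged to a member when its transcript accession, without version, was one of that gene in RefSeq. By this rule 37 of the 41 members had at least 1 probe, with 47 probes in all, and 11561 genes were measured in the whole series. The 4 members without a matched probe were Mcm5, Bub1b, Top2a and Cenpe, and they are not analysed here. All 37 others, 14 of S phase and 23 of mitosis, were well above background on all 10 arrays, so none was lost to the filter on dim probes.

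Total RNA of testes was hybridised to 10 one-colour Agilent arrays, 1 for each code of a father. The pups were a cross of Brown Norway males with Sprague Dawley females. The fathers had been given saline or BEP for 9 weeks and then had 9 weeks of recovery. BEP commonly stands for bleomycin, etoposide and cisplatin, the drugs of testicular cancer chemotherapy, which the labels leave unspelled. Father codes held a C on 5 arrays and a T on the other 5. C is read here as saline and T as BEP, which no label states. The pups themselves were not treated, and the sources used here do not say from how many of them the RNA of one array came.

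Before a cell divides, the Mcm2 to Mcm7 proteins are loaded onto replication origins as the core of the helicase, and Cdc45 and the GINS complex switch it on. Thymidylate synthase and ribonucleotide reductase supply the building blocks of the new DNA, and Pcna holds the polymerases on it. In mitosis, Cdk1 with its cyclins starts the division, Aurora and Polo-like kinases shape the spindle, and a checkpoint holds back the anaphase promoting complex until the chromosomes are attached. In the testis of the newborn rat the Sertoli cells, which nurse the germ line, still divide, and the gonocytes resume mitosis in the first week of life.

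Signals lay between 1525 units (C replicate 1) and 2686 units (C replicate 3) at the 75th percentile of an array, and 0 spots were saturated. Values of any 2 arrays correlated at 0.990 to 0.997 over the 21892 probes tested. The arrays lay on 2 slides: C replicates 1 to 3 and T replicates 1 and 2 on slide 1, C replicates 4 and 5 and T replicates 3 to 5 on slide 2. The fathers' codes also end in 1R on 7 arrays and in 2R on 3, C replicate 5 and T replicates 4 and 5, all 3 on slide 2, and the labels do not say what this ending means. Markers of the labelled tissue were present: 13 of 14 Sertoli cell markers, 16 of 16 germ cell markers and 8 of 10 Leydig cell markers with a probe were well above background on all 10 arrays, while Lhcgr was so on 0. Red cell and skeletal muscle markers were also present (8 of 9 and 7 of 9 on all arrays).

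Promoter sequence is shown first, as background to each phase. Whether the motifs bear on how members vary together was not tested. The RefSeq promoter table (GRCr8 build) held 33 of the 41 members, 12 of S phase and 21 of mitosis. Among them were Mcm5, Bub1b, Top2a and Cenpe, which had no matched probe. The 250 bases before each gene's start were searched on both strands. Transcription factors of the E2F family, which drive S phase genes, bind the letters TTCCCGC, searched here along with the variant TTCGCGC, the variant TTGCCGC and the variant TTGGCGC. The letters CCAAT are bound by NF-Y, and the cell cycle homology region, searched as TTTGAA, recruits the repressor complex that keeps mitotic genes silent until late in the cycle. An E2F motif was present in 7 of 12 S phase promoters (58.3%) and 2 of 21 mitotic ones (9.52%), against 7.59% of 33469 promoters. The TTTGAA motif was present in 1 of 12 S phase promoters (8.33%) and 8 of 21 mitotic ones (38.1%), against 16.2% of all. CCAAT was in 9 of 12 (75%) and 16 of 21 (76.2%), against 34.0%. CCAAT together with TTTGAA was found in 0 of 12 and 8 of 21, against 5.87% of all promoters. A match is a run of letters and not a measured binding site.

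The 150 bases before the start of 5 members are given below, 5′ to 3′, picked because they hold these motifs. Capitals mark E2F motifs in Mcm2 (chr4:122918095-122918244, minus strand), Mcm7 (chr12:22163179-22163328, minus strand) and Gins1 (chr3:160184770-160184919, plus strand). They mark CCAAT and TTTGAA motifs in Cdk1 (chr20:19265143-19265292, plus strand) and Cdca8 (chr5:142483200-142483349, minus strand). Motifs of both strands overlap in the E2F runs, and the Mcm7 run also overlaps a CCAAT. Other matches stay in lower case. One is an E2F motif, TTCGCGC, in Cdk1, which with Ccnb2 is 1 of the 2 mitotic promoters that hold one. In Cdca8 the TTTGAA and the CCAAT motif on the other strand overlap.
Mcm2: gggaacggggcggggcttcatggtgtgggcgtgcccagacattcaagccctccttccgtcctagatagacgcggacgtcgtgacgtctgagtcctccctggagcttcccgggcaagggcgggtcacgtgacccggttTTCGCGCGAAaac
Mcm7: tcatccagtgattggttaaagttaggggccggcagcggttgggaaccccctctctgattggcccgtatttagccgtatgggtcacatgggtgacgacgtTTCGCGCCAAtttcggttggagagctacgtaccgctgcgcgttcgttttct
Gins1: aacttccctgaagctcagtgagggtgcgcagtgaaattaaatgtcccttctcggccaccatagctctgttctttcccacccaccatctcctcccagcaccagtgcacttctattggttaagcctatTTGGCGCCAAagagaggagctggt
Cdk1: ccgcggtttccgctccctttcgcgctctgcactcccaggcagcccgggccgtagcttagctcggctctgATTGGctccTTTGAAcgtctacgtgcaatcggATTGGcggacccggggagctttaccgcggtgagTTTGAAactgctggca
Cdca8: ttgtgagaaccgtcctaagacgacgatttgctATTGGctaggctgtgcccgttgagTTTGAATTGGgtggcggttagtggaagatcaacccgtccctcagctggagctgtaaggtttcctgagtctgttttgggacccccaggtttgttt

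The first comparison asked whether the treatment of the fathers left a difference in replication and mitosis genes of the offspring testis. Each gene is counted here by 1 probe, the brighter where there were more. None of the 37 members passed the test, and the differences of these probes were small. They ran from -0.17 for Cdca8 to 0.17 for Gins2 on the log2 scale (T minus C). The second probes of Mcm4 (-0.43) and Rrm2 (-0.24) lay outside this range and are described below. With limma, 0 of 37 members had a Benjamini-Hochberg adjusted p under 0.05, as had 0% of all 11561 genes tested. At an unadjusted p under 0.05 there were 0 of 37 members, against 4.01% of all genes. The T arrays lay entirely on one side of the C arrays for 0 of 37 members, against 0.778% of all genes. Of the members 18 stood higher and 19 lower in the T group, where 53.9% of all genes had a difference below 0. Scaling the arrays by their median turned the split to 23 higher and 14 lower. The share of all probes lower in T went from 58.5% to 52.4% with that scaling. The median difference was -0.0019 over the members and -0.0089 over all genes.

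The arrays bounded these differences more closely than for most genes. The 95% confidence interval of a member reached 0.16 log2 units to either side at the median, or 1.12-fold, against 0.20 over all genes. With the brighter probe of each gene, for 37 of 37 members it left out differences of 1.5-fold or more, whether up or down, against 90.3% of all genes. The farthest bounds of these probes were those of Gins2, at 0.42 (1.34-fold higher), and Cdca8, at -0.36 (1.28-fold lower). Of the 10 second probes, 1 reached past 1.5-fold: the interval of the second Mcm4 probe ran from -0.85 (1.81-fold lower) to -0.015, and that of Rrm2 reached -0.42. In bulk tissue a change in the share of dividing cells and a change in the RNA per dividing cell cannot be told apart, so these bounds are on their product.

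**Figure D1:**
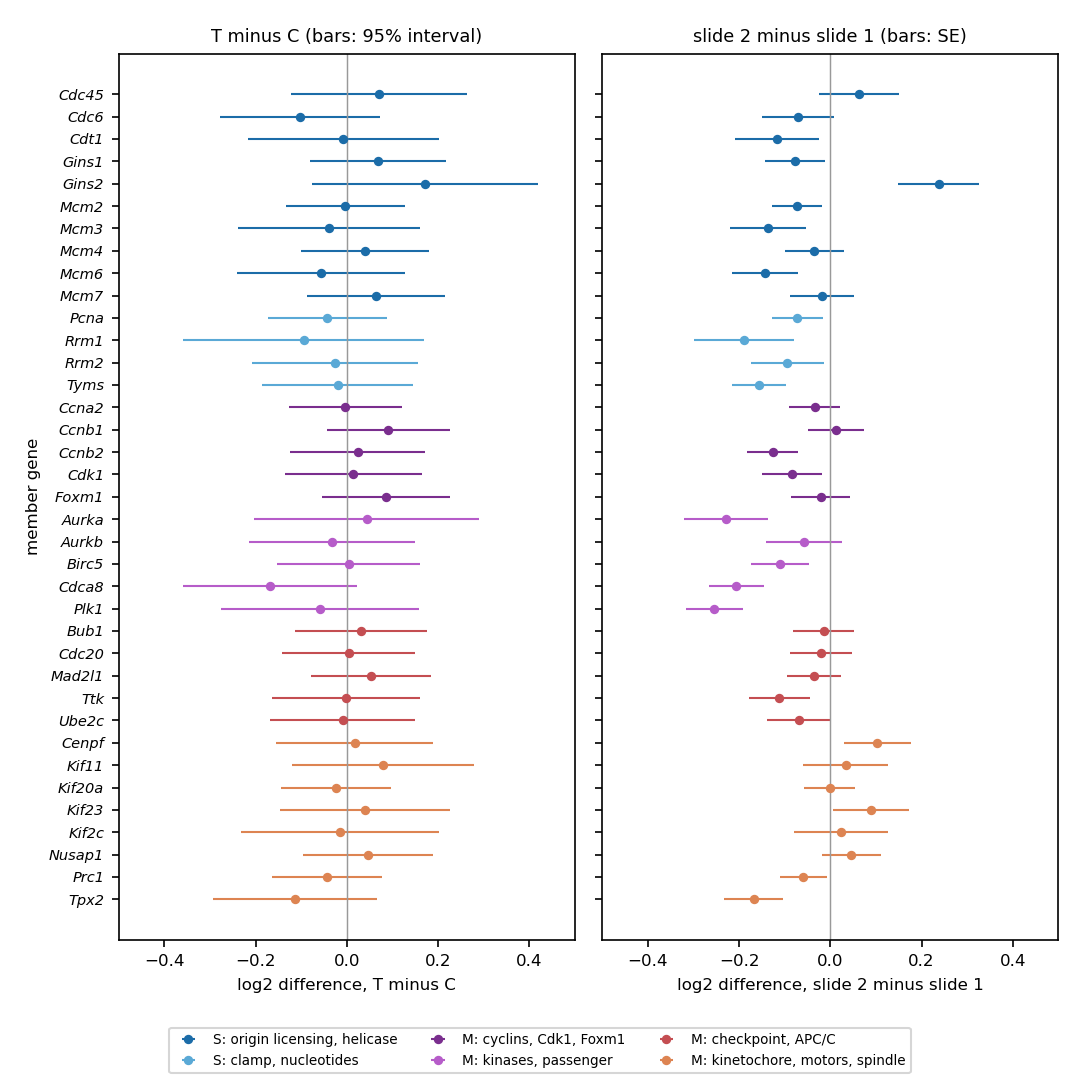
Log2 differences of the 37 measured members, T minus C with 95% confidence intervals from limma (left, 5 arrays per group) and slide 2 minus slide 1 with standard errors (right, 5 arrays per slide, group as a term). Each gene is shown by its brighter probe, and each interval on the left includes 0. On the right 29 of 37 members lie below 0.

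Values below are log2 signals relative to the 75th percentile of the array, so that 0 is a signal at that percentile and 1 is 2 times it. They compare arrays for 1 probe and not genes with each other. Replicates carry no order, and T minus C differences are given with their standard error from limma (5 arrays per group, adjusted p = 0.9985 for each member).

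Among the origin licensing and helicase genes, 5 stood higher and 5 lower in the T group. Gins2, a subunit of the GINS complex, had the smallest p of the S phase genes. Its values were -2.48, -2.48, -2.19, -2.39 and -2.17 on C replicates 1 to 5 and -2.40, -2.39, -2.09, -2.06 and -1.92 on T replicates 1 to 5. The 3 highest values were T arrays, and the other T arrays lay within the C range, which gave a difference of 0.17 ± 0.11 (unadjusted p = 0.154). All 3 of those T arrays were on slide 2. Within slide 1 the difference was -0.010, and within slide 2 it was 0.26.

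Cdc6, the ATPase that loads the Mcm ring, was -0.73, -1.07, -1.12, -1.10 and -1.06 on the C arrays and -1.07, -1.12, -1.18, -1.07 and -1.14 on the T arrays. C replicate 1 stood above every other array and carried most of the difference of -0.10 ± 0.079, which was -0.032 without it. Gins1, another GINS subunit, was 1.32, 1.43, 1.41, 1.31 and 1.32 on the C arrays and 1.45, 1.505, 1.36, 1.26 and 1.55 on the T arrays. Its T arrays held both the highest and the lowest value, with a difference of 0.068 ± 0.068.

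Mcm7, a subunit of the helicase ring, was 3.60, 3.53, 3.59, 3.65 and 3.60 on the C arrays and 3.66, 3.76, 3.76, 3.45 and 3.65 on the T arrays. The C arrays spanned a narrow range within that of the T arrays, and the difference was 0.064 ± 0.068. Mcm2, of the same ring, was 2.50, 2.36, 2.35, 2.38 and 2.28 on the C arrays and 2.38, 2.45, 2.38, 2.29 and 2.36 on the T arrays. The T arrays lay within the range of the C arrays (-0.0033 ± 0.059), and the sign of this difference changed with the scaling.

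For the other licensing genes the differences were 0.071 ± 0.087 for Cdc45, the helicase activator, and -0.0079 ± 0.095 for Cdt1, the loading partner of Cdc6. They were -0.039 ± 0.090 for Mcm3, 0.039 ± 0.064 for Mcm4 and -0.057 ± 0.083 for Mcm6. Each of these 5 differences, with the brighter probe of the gene, was smaller than its standard error. By these probes the helicase ring showed no common direction. The second Mcm4 probe differed by -0.43 ± 0.19.

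All 4 genes of the clamp and of nucleotide supply stood lower in the T group, with the brighter probe each by less than its standard error. The second Rrm2 probe differed by more than its standard error (-0.24 ± 0.082). Pcna, the sliding clamp, was 2.84, 2.82, 2.91, 2.84 and 2.82 on the C arrays and 2.83, 2.91, 2.78, 2.66 and 2.82 on the T arrays. T replicate 4 was the lowest array (2.66) and the others lay between 2.78 and 2.91, for a difference of -0.043 ± 0.059. The large and small subunits of ribonucleotide reductase, Rrm1 and Rrm2, differed by -0.095 ± 0.12 and -0.026 ± 0.082, and thymidylate synthase, Tyms, by -0.020 ± 0.075. Rrm1 was the member with the widest spread, from -3.04 on T replicate 5 to -2.42 on C replicate 2, a 1.54-fold range.

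Among the cyclins, Cdk1 and Foxm1, 4 of 5 stood higher in the T group. Ccnb1, the cyclin that triggers entry into mitosis, was 0.26, 0.21, 0.25, 0.18 and 0.12 on the C arrays and 0.26, 0.19, 0.26, 0.41 and 0.35 on the T arrays. T replicates 4 and 5 were the highest. T replicate 3 (0.262) lay just above the highest C array (0.258), and T replicates 1 and 2 lay among the C arrays. The difference was 0.091 ± 0.061 (limma, unadjusted p = 0.165). Foxm1, the transcription factor that switches on many mitotic genes, was 0.22, 0.17, 0.10, -0.0077 and 0.078 on the C arrays and 0.13, 0.16, 0.13, 0.26 and 0.29 on the T arrays. The same T arrays, replicates 4 and 5, were again the highest (0.085 ± 0.063). They are the T arrays coded 2R. Within the arrays coded 1R (4 C and 3 T) the differences were 0.011 for Ccnb1 and 0.023 for Foxm1, and within those coded 2R (1 C and 2 T) 0.26 and 0.20.

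Cdk1, the mitotic kinase itself, was 3.54, 3.54, 3.66, 3.56 and 3.40 on the C arrays and 3.59, 3.61, 3.46, 3.45 and 3.67 on the T arrays. The groups spanned nearly equal ranges, and the difference was 0.014 ± 0.068. The differences of the cyclins Ccna2 and Ccnb2 were -0.0032 ± 0.056 and 0.024 ± 0.067, with the smaller spread for Ccna2, whose 10 arrays covered a 1.12-fold range.

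Of the mitotic kinases and the chromosomal passenger complex, 2 stood higher and 3 lower in the T group. Cdca8, the borealin subunit of the passenger complex, had the smallest p of all members. It was -2.01, -1.91, -1.97, -2.12 and -2.19 on the C arrays and -1.98, -2.17, -2.25, -2.25 and -2.40 on the T arrays. The lowest 3 values were T arrays of slide 2, while T replicate 1 lay among the highest C arrays, and the difference was -0.17 ± 0.086 (unadjusted p = 0.0762). Of the other subunits of the complex, Birc5, or survivin, differed by 0.0038 ± 0.071 and the kinase Aurkb by -0.032 ± 0.082. Incenp, the scaffold of the complex, which is not among the 41 genes, differed by 0.12 ± 0.057. Aurka, the kinase of the spindle poles, differed by 0.044 ± 0.11 and Plk1, the Polo-like kinase, by -0.060 ± 0.098.

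Of the spindle checkpoint genes 3 stood higher and 2 lower, with differences from -0.0094 to 0.053. Mad2l1, which binds the activator of the anaphase promoting complex, was -0.052, -0.065, -0.081, -0.16 and -0.12 on the C arrays and -0.046, -0.045, -0.17, 0.083 and -0.041 on the T arrays. T replicate 4 was the highest and T replicate 3 the lowest array (0.053 ± 0.059). The differences were 0.031 ± 0.065 for the kinase Bub1, -0.0019 ± 0.073 for Ttk, the kinase that starts checkpoint signalling, 0.0037 ± 0.066 for Cdc20, the activator of the anaphase promoting complex, and -0.0094 ± 0.072 for Ube2c, its ubiquitin-conjugating enzyme.

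Of the kinetochore, motor and spindle genes, 4 stood higher and 4 lower. Tpx2, which brings Aurka to the spindle, was -0.16, -0.077, -0.27, -0.32 and -0.36 on the C arrays and -0.18, -0.32, -0.35, -0.54 and -0.36 on the T arrays. T replicate 4 was the lowest and the other T arrays lay within or at the edge of the C range (-0.11 ± 0.081). Kif11, the motor that pushes the spindle poles apart, was -0.044, 0.12, 0.29, 0.056 and 0.041 on the C arrays and -0.077, 0.25, 0.19, 0.16 and 0.34 on the T arrays. The T arrays held the highest and the lowest value (0.079 ± 0.090).

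The differences of the remaining spindle genes ran from -0.043 ± 0.054 for Prc1, which bundles the central spindle, to 0.047 ± 0.064 for Nusap1, a microtubule-binding protein. Between them lay the motors Kif20a (-0.024 ± 0.054), Kif2c (-0.015 ± 0.098) and Kif23 (0.040 ± 0.084) and the kinetochore protein Cenpf (0.017 ± 0.078).

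**Figure D2:**
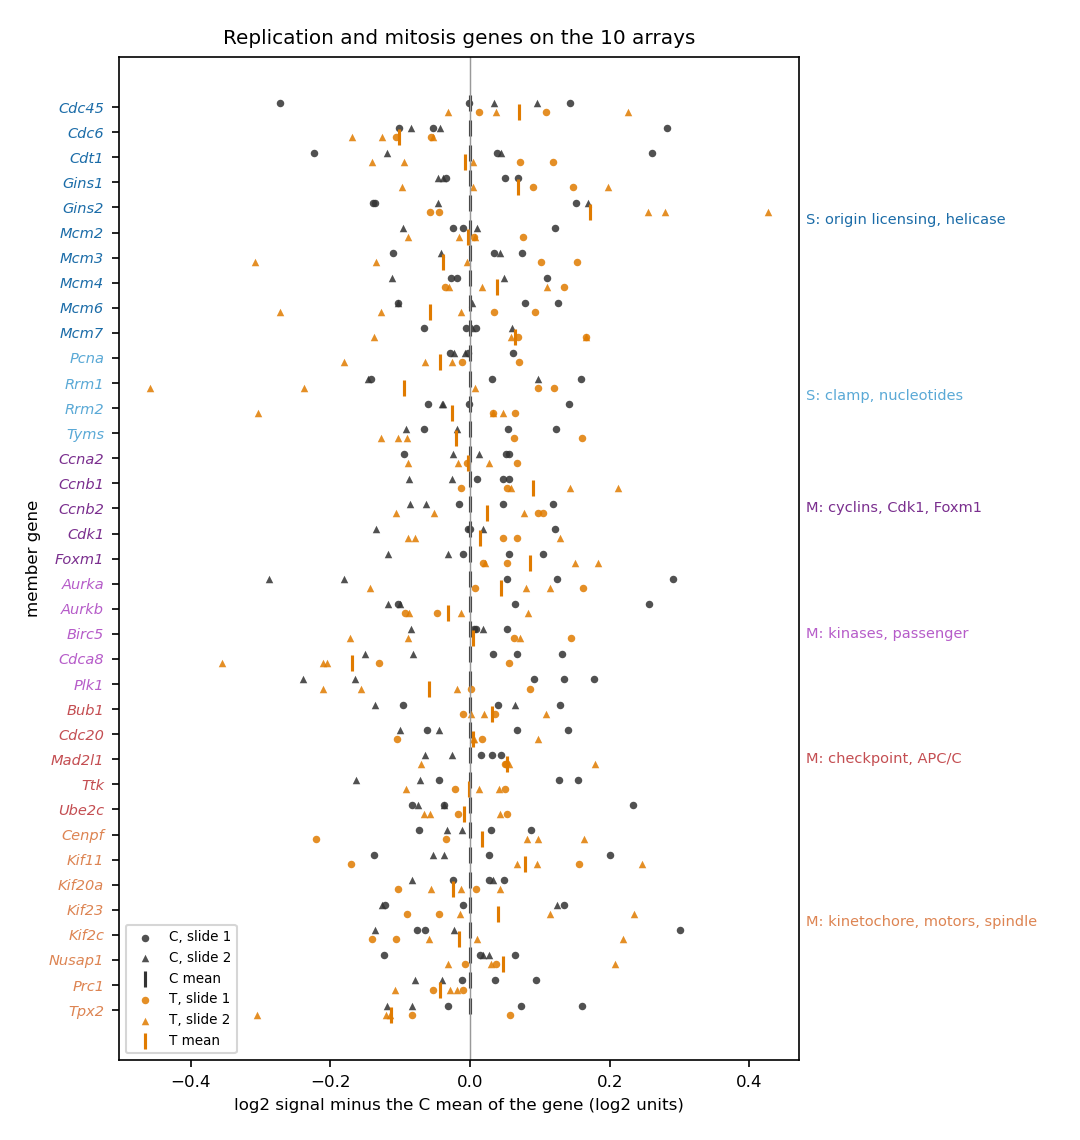
Log2 signal of each measured member on each of the 10 arrays, less the mean of its 5 C arrays; circles are slide 1, triangles slide 2, vertical ticks the group means. The C and T arrays overlap for all 37 members. T replicate 4, on slide 2, is the lowest array for Pcna and Rrm2.

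The second comparison set the S phase genes against the mitotic genes. The median difference, T minus C, was -0.014 over 14 S phase genes and 0.0038 over 23 mitotic genes. The level of each set on an array is given as the mean deviation of its genes from their means over all arrays. For the S phase genes it was 0.026, 0.045, -0.039, -0.0051 and -0.031 on C replicates 1 to 5 and 0.038, 0.080, 0.0077, -0.12 and -0.0025 on T replicates 1 to 5. T replicate 2 was the highest and T replicate 4 the lowest, and the group means were -0.00077 ± 0.036 (SD) and 0.00077 ± 0.074. For the mitotic genes the level was 0.039, 0.019, 0.077, -0.072 and -0.070 on the C arrays and 0.0036, -0.0046, -0.038, 0.0033 and 0.043 on the T arrays. C replicate 3 was the highest, and C replicates 4 and 5 were the lowest.

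The S phase level less the mitotic level was 0.00059 ± 0.071 (SD, n = 5) over the C arrays and -0.00059 ± 0.083 over the T arrays. The arrays with the lowest values of this contrast were C replicate 3 (-0.12) and T replicate 4 (-0.12), and the highest was T replicate 2 (0.085). The direction between the groups differed by slide. Within slide 1 both T arrays (0.035 and 0.085) lay above all 3 C arrays (-0.013, 0.026 and -0.12). Within slide 2, T replicate 3 (0.046) lay between the C arrays (0.067 and 0.038), and the other T arrays (-0.12 and -0.045) lay below them. The median difference of the S phase genes less that of the mitotic genes was accordingly 0.11 within slide 1 and -0.12 within slide 2. It was 0.056 within the arrays coded 1R and -0.13 within those coded 2R. Whether the slides or the codes differ in this was not tested.

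Correlations between genes were higher at the median within a phase than between phases. Over the 10 arrays, taken as deviations from the group means, the median Pearson correlation was 0.32 over 91 pairs of S phase genes and 0.22 over 253 pairs of mitotic genes. Between the sets it was 0.029 over 322 pairs, and over pairs of genes in no list it was also 0.029. The share of pairs above 0.5 was 36.3%, 23.3%, 14.9% and 13.6% in this order. All genes of an array share its scaling, its RNA and its slide, and slide means were not removed, so these values describe the 10 arrays.

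In S phase the closest pair was Mcm3 with Mcm6 (r = 0.93), both of the helicase ring, followed by Cdt1 with Mcm6 (0.87) and Cdt1 with Mcm2 (0.85). Mcm4, of the same ring, followed Mcm3 at 0.23, Mcm6 at 0.22 and Mcm2 at 0.035. Mcm6 and Mcm3 followed the mean of the other S phase genes most closely (both 0.92). Gins2 ran against them (-0.78), with -0.90 against Tyms and -0.90 against Rrm1, and Cdc45 and Cdc6 were near 0 (-0.17 and -0.038). Between the slides, Gins2 was higher on slide 2 (0.24), while Tyms (-0.16) and Rrm1 (-0.19) were lower. The part of the slides in these correlations was not tested. In mitosis the closest pairs were Aurka with Plk1 (0.88), Ccnb2 with Cdk1 (0.85), a cyclin with its kinase, and Aurkb with Kif2c (0.85). Aurka and Plk1 were both lower on slide 2 (-0.23 and -0.25). Other partners did not follow each other: Ccnb1 and Cdk1 correlated at 0.12, and Aurkb with Cdca8 and Birc5 of its complex at 0.032 and -0.19. Ccna2 ran against Kif2c (-0.85). Some pairs across the phases were as close, such as Tyms with Tpx2 (0.87) and Gins2 with Kif23 (0.86). Birc5 and Tpx2, both mitotic by function, followed the mean of the S phase genes (0.76 and 0.81) more closely than that of the other mitotic genes (0.23 and 0.25).

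**Figure D3:**
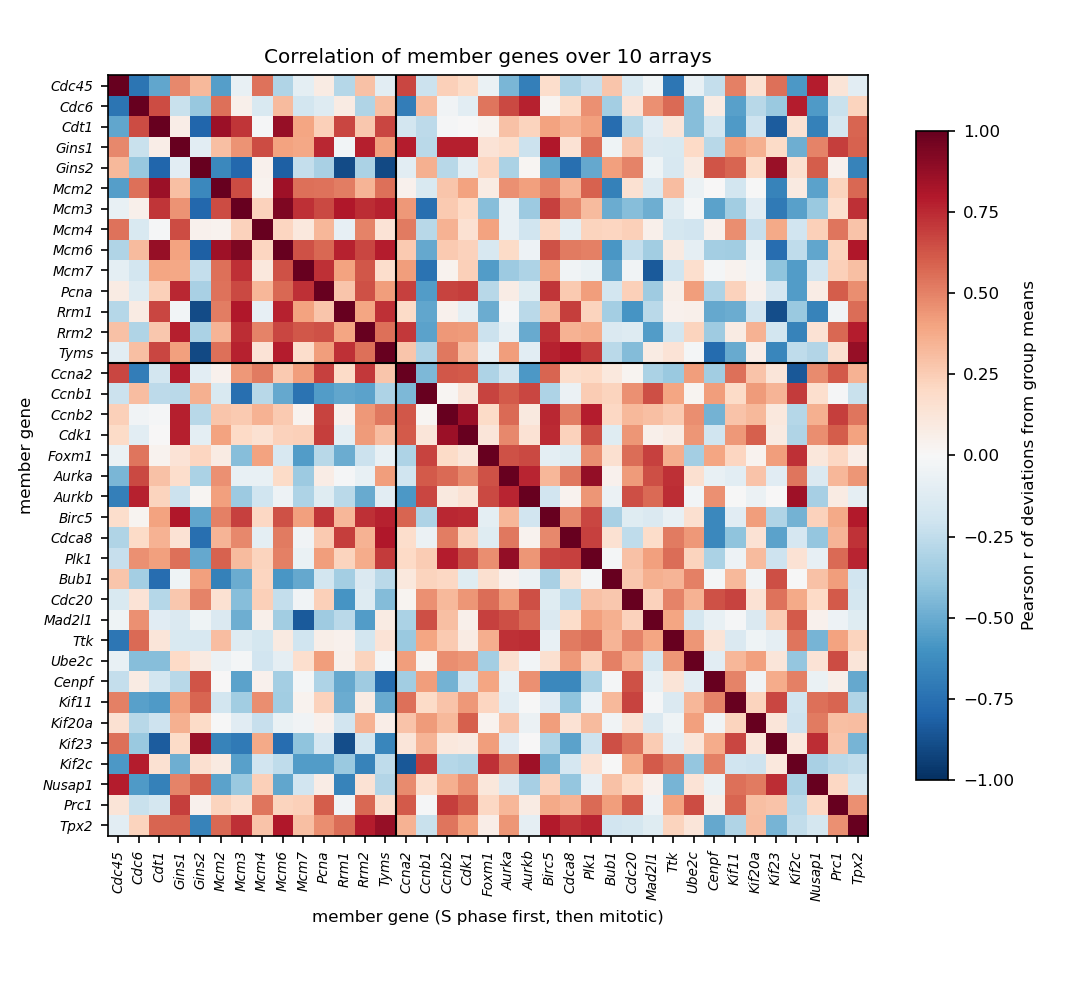
Pearson correlation between measured members over 10 arrays, as deviations from the group means; black lines part S phase genes (upper left block) from mitotic genes. Most of the S phase block is positive, with Gins2 as a row of mostly negative values, and the blocks between the sets hold both signs.

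How widely a member varied was set beside the 500 genes nearest to it in brightness. Plk1 and Aurka had a larger spread within groups (SD 0.16 and 0.19) than 89.8% and 88.2% of such genes, and Cdc45 and Mcm3 (0.14 each) than 80.8% and 79.6%. This spread includes differences between the slides. Over the arrays of slide 1 and of slide 2 the SD was 0.066 and 0.085 for Plk1, and 0.11 and 0.17 for Aurka. Prc1 and Kif20a (0.055 each) had a larger spread than only 5.8% and 7.0%.

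Among 8 lists of cell type markers, that of Sertoli cells followed the S phase genes most closely from array to array. Taken as deviations from the group means, the correlation with the mean of the S phase genes was 0.86 for Sertoli cells, 0.59 for red cells, 0.44 for skeletal muscle, 0.43 for Leydig cells, 0.39 for endothelium and 0.18 for smooth muscle, and -0.38 for both germ cells and macrophages. With the mean of the mitotic genes it was 0.55 for skeletal muscle and lay between -0.46 and 0.20 for the other lists. Of 14 measured Sertoli cell markers, 8 stood lower in the T group and 6 higher. Their mean deviation lay between -0.060 and 0.058 on the C arrays and between -0.11 and 0.082 on the T arrays. T replicate 2 was the highest and T replicate 4 the lowest array for this list, as for the S phase genes. The correlation of these mean deviations over 10 arrays was 0.86 (Pearson) and 0.76 (Spearman), and 0.57 without T replicates 2 and 4, the arrays farthest from the median, so much of it rests on them. With the mitotic genes the Sertoli cell list correlated at -0.092 (Spearman -0.19), and at -0.91 within slide 1 and -0.15 within slide 2. The S phase and mitotic levels correlated with each other at 0.018 over the 10 arrays (Spearman 0.030). Within slide 1 that was -0.95 and within slide 2 -0.22. Of 16 germ cell markers 4 stood lower in the T group and 12 higher (median difference 0.095). At an unadjusted p under 0.05 there were 3 higher and 1 lower, against 4.01% of all genes, and 0 passed the adjusted threshold. Germ cell markers, with mean deviations from -0.12 to 0.014 on the C arrays and from -0.055 to 0.14 on the T arrays, correlated at -0.28 with the S phase genes (Spearman -0.13, and 0.57 without C replicate 2 and T replicate 4, so its sign rests on them) and -0.34 with the mitotic genes (Spearman -0.43). The other genes of replication followed the S phase genes at 0.44 (Spearman 0.41), and at 0.12 without T replicates 2 and 4. Both lists had a lower mean on slide 2 (-0.026 and -0.030) than on slide 1 (0.026 and 0.030). Within slide 1 they correlated at 0.016, and within slide 2 at -0.027. The other genes of mitosis followed the mitotic genes at 0.77 (Spearman 0.62), and at 0.62 without C replicates 3 and 4. Within slide 1 this was 0.020 and within slide 2 0.998. For the S phase genes, the Sertoli cell list gave 0.90 and 0.85 within slides 1 and 2, and the germ cell list 0.62 and -0.62. These are descriptions of 10 arrays without a test, and the values within a slide rest on only 5 arrays each. The part of cell composition and of the slides in the levels of the members was not tested.

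**Figure D4:**
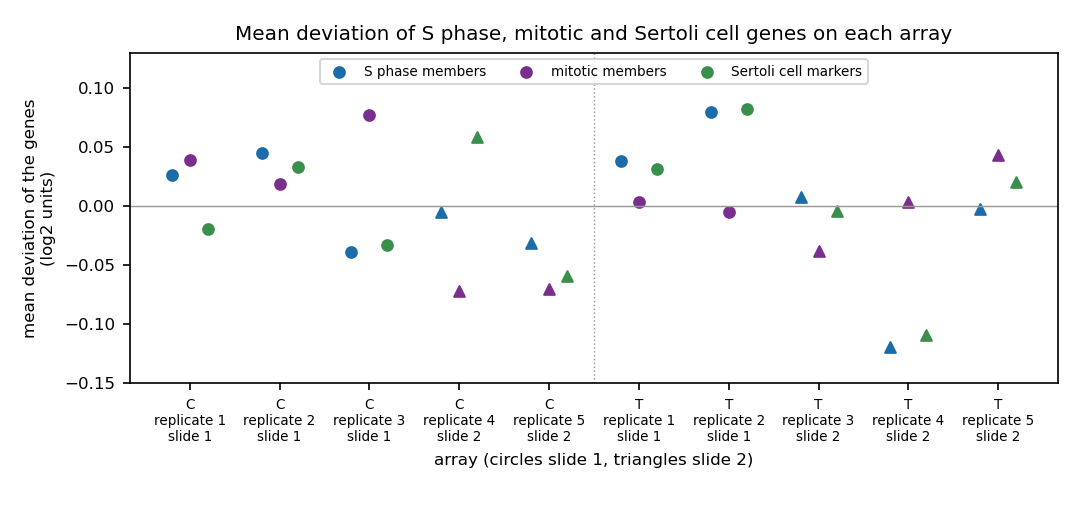
Mean deviation, in log2 units, of 14 S phase genes, 23 mitotic genes and 14 Sertoli cell markers on each array from their means over all 10 arrays; circles are slide 1 and triangles slide 2. T replicate 4 is lowest and T replicate 2 highest for both the S phase genes and the Sertoli cell markers, while C replicates 4 and 5 are lowest for the mitotic genes.

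The genes in no list whose pattern over the arrays was most like the mean of the S phase genes were Nup62 (r = 0.98), Ints5 (0.96), Met (0.96), Cdc42bpb (0.95) and 6430548M08Rikl (0.95). For the mitotic genes they were Slc8a2 (0.95), Tusc2 (0.92), Naa20 (0.91), Yaf2 (0.91) and Nrbf2 (0.91). These are the highest of 11364 genes compared over 10 arrays.

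For 10 members 2 probes were measured, and the brighter one stands for the gene above. The probes had the same sign of difference in 6 genes and opposite signs in Mcm4, Foxm1, Bub1 and Cenpf. The second Mcm4 probe was -1.74, -2.66, -1.76, -2.22 and -1.84 on the C arrays and -2.66, -2.64, -2.03, -2.51 and -2.55 on the T arrays. Its groups overlapped, with a difference of -0.43 ± 0.19 (unadjusted p = 0.0438), where the brighter probe had 0.039, and the probes correlated at -0.39 over the arrays. The second Rrm2 probe differed by -0.24 ± 0.082 (unadjusted p = 0.0139), and the brighter one by -0.026. For Cenpf the second probe differed by -0.16 ± 0.077, for Foxm1 by -0.0056 ± 0.10 and for Bub1 by -0.048 ± 0.12. The probes of Kif2c and of Mcm2 followed each other more closely (r = 0.86 and 0.81). None of the second probes passed the adjusted threshold (limma, adjusted p = 0.9985), and at an unadjusted p under 0.05 there were 2 of 10, against 3.97% of all probes.

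Other genes of both pathways were taken from lists. Of 41 measured other replication genes, 24 stood lower in the T group and 17 higher (median difference -0.024), where 53.9% of all genes were lower. The adjusted threshold was passed by 0 of 41. At an unadjusted p under 0.05 there was 1 of 41, against 4.01% of all genes. That gene was Ccne2, a cyclin of the entry into S phase, which was -3.50, -3.92, -3.81, -4.13 and -3.82 on the C arrays and -3.90, -4.28, -4.10, -4.25 and -4.54 on the T arrays (-0.38 ± 0.13, unadjusted p = 0.0179). Its groups overlapped at 2 T arrays. Pola1, the catalytic subunit of the priming polymerase, differed by -0.16 ± 0.074 and Orc4, of the origin recognition complex, by 0.13 ± 0.079. Of 40 other mitosis genes, 27 stood higher and 13 lower, with 0 past either threshold (median 0.024). The smallest p-values were those of Incenp, given above, of Smc2, a condensin subunit (-0.16 ± 0.082), and of Cdca5, or sororin, which holds sister chromatids together (0.26 ± 0.14).

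The slides were then compared. Of 37 members 29 were lower on slide 2 and 8 higher, where 52.0% of all genes were lower, and the median difference, slide 2 minus slide 1 with group as a term, was -0.069, against -0.0067 over all genes. With limma 1 member, Plk1, passed the adjusted threshold, against 5.37% of all genes, and 7 of 37 had an unadjusted p under 0.05, against 18.2%. The counts by p lie near or below the shares of all genes, while the 29 of 37 lower members exceed the share of 52.0%. With quantile scaling 12 members were higher on slide 2, the median was -0.037 and none passed (Plk1, adjusted p = 0.0863).

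Plk1 was 3.00, 2.95, 2.91, 2.90 and 2.82 on the arrays of slide 1 (C replicates 1 to 3, then T replicates 1 and 2). It was 2.65, 2.58, 2.61, 2.66 and 2.80 on those of slide 2 (C replicates 4 and 5, then T replicates 3 to 5). Every array of slide 2 lay below every array of slide 1, with a difference of -0.25 ± 0.063 (limma, adjusted p = 0.0311). The call also ended with the 1R or 2R ending as a further term, chosen after seeing the data (-0.28, adjusted p = 0.133). It ended when C replicate 1, 2, 4 or 5 or T replicate 1, 3 or 4 was left out (adjusted p from 0.0527 to 0.125). Cdca8 (-0.21 ± 0.061) and Gins2 (0.24 ± 0.089) followed, with adjusted p = 0.063 and 0.136. Of the 5 kinases and passenger proteins, 5 were lower on slide 2 (median -0.21), and of the 8 kinetochore, motor and spindle genes 3 were. Germ cell markers went the other way, with 12 of 16 higher on slide 2 (median 0.057), and 9 of 14 Sertoli cell markers were lower (median -0.062). Which testes went onto which slide is fixed in these data, so differences between slides and between the testes on them cannot be told apart.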

How the data were processed

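The deposited scanner files hold spot intensities that, per the file headers, the authors made with version 10.7.3.1 of Agilent's Feature Extraction software (the submitters' processing notes name 10.7). The authors' deposited value table holds log2 values centred per probe (correlation with the scanner values 0.998 to 0.999 per array, column medians from -0.017 to 0.029), whose scaling between arrays stays unknown. It served as an alternative.

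Of 62976 spots per array, 4259 controls were left out. The log2 processed signal less the 75th percentile of the array was averaged over the spots of a probe, with 494 to 745 outlier spots per array set missing. A probe was tested if well above background on at least 5 of 10 arrays (21892 of 30367). Accessions were named through RefSeq (GRCr8), which gave a symbol to 17998 probes. The tested probe with the highest mean stood for a gene. The groups were compared with limma 3.58.1 in R 4.3.3 (lmFit, eBayes, two-sided), with p-values adjusted over all probes at 0.05. The fit was tested on simulated data. The labels do not say whether a testis was pooled, so p-values measure the spread between these 10 arrays, whose number limits the precision.

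Values on every array are given for the 4 S phase and 6 mitotic members with the smallest p and for Pcna, Mcm2, Cdk1 and Ccnb1; 1 more gene of that fixed panel, Top2a, had no matched probe. The members and lists were chosen with earlier results of these data known. Alternatives covered background correction (normexp on the median spot signal with an offset of 50, as the files used here give no mean), scaling, filters, variance model, array weights, slide, sire numbers, sire code endings (added after seeing the data), probe choice, the authors' table and leaving out arrays 1 at a time. Endothelial, macrophage, smooth muscle, Leydig, red cell and skeletal muscle markers were listed too: 6 of 7, 4 of 8, 1 of 6, 4 of 8, 7 of 8 and 6 of 8 stood higher in the T group.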

Additional observations from a re-analysis of the deposited data

Results flagged for a closer look

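In groups of 5 arrays, 1 array stood apart from the others, by a gap of more than 0.71 of the group's range, in 7 of 78 groups checked (37 genes and 2 gene set levels, in C and in T). Chance gives about 1 in 20 groups. On C replicate 1, Cdc6 was the highest at -0.732 and Kif2c the highest at -1.26 (nearest others -1.06 and -1.59), while Nusap1 was the lowest at 1.49 (nearest 1.63). On C replicate 3, Pcna was the highest at 2.91 (nearest 2.84) and Ube2c the highest at 1.85 (nearest 1.58). On T replicate 4, Rrm2 was the lowest at 3.44 (nearest 3.78). On T replicate 5, Nusap1 was the highest at 1.82 (nearest 1.65).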

How the results depend on the processing

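Under 27 alternatives, 3 of them (the 1R or 2R ending of the sire code) chosen after seeing the data, 0 members passed the adjusted threshold between the groups, and 0 probes, save 1 within the 3 arrays coded 2R. At an unadjusted p under 0.05 there was 1 of 37 members with array weights (Cdca8), against 1013 of 21892 probes. When an array was left out there were 0 to 1 of 37, against 648 to 1151 probes. The arrays coded 2R hold 1 C array and are left out of these counts. The count of members lower in T was 9 with the replicate block (number in the sire code) and 12 with the code ending as a term. It was 12 (without T replicate 4) to 23 (without C replicate 5) when an array was left out. The share of all probes lower in T was 46.3% with the replicate block and 53.7% with the code ending. It was 54.0% without T replicate 4 and 60.6% without C replicate 5, against 58.5% in the main setting. Sire numbers 2, 4 and 6 occur in both groups, and arrays of one number correlated at -0.51, 0.28 and 0.19 in their deviations. From 3 pairs it cannot be told whether such arrays share more than the number. Within slide 1 the median difference was 0.050 for S phase genes, -0.064 for mitotic genes and 0.11 for the first less the second, and within slide 2 it was 0.079 for mitotic genes and -0.12 for that contrast. Within the arrays coded 2R it was 0.096 for mitotic genes and -0.13 for the contrast. Of 351 values for 13 members, 326 kept their sign and 25, in 8 members, changed it, and the cause was not tested. Within slide 1 these were Gins2 (-0.010), Ccnb1 (-0.017), Foxm1 (-0.014), Kif11 (-0.037), Pcna (0.019) and Mcm2 (0.012), and within slide 2 Mcm7 (-0.0030) and Mcm2 (0.011). With the replicate block Pcna was 0.017 and Mcm2 0.062. Within the arrays coded 2R Mcm7 was -0.043 and Mcm2 0.044, and within those coded 1R Mcm2 was 0.0053 and Cdk1 -0.023. Mcm2 was also 0.016 with the code ending as a term, 0.0092 with normexp, 0.0026 with quantile scaling, 0.012 with median scaling, 0.015 with array weights, 0.011 with slide as a term, 0.0080 with the authors' values and -0.027 to 0.027 when an array was left out. Cdk1 was -0.019 to 0.045 when an array was left out. Between the slides, 1277 (without C replicate 5) to 2753 (without C replicate 3) probes passed when an array was left out, against 2143, also 1334 without T replicate 1 and 1410 without T replicate 2. With the code ending as a term 782 probes and 0 members passed. Of the members 0 to 2 passed when an array was left out and 0 with quantile scaling, where the median was -0.037.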
